A study of Mus musculus with 64 samples.

Results

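Of 55335 mouse genes in the count table, 9 encode proteins that sense or act on foreign RNA or relay that signal to interferon genes: Ddx58, Ifih1, Dhx58, Mavs, Zc3hav1, Eif2ak2, Adar, Irf1 and Irf3. They were picked by symbol (GENCODE M21), with earlier results of these libraries in view, including responses to the auxin indole-3-acetic acid (IAA). The values that chose them include every comparison made here, so changes of these 9 genes are given as a description, and calls serve as labels only. All 9 were found in the table, 8 passed the filter on low counts, and Ifih1 did not.

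The cells were V6.5 mouse embryonic stem cells, either wild type (WT) or carrying an auxin-inducible degron, a tag that lets IAA trigger destruction of the protein, on 1 subunit of RNA polymerase II (lines RPB1 to RPB12). RNA sequencing gave 64 libraries in 32 groups of 2. Cells of both sets received doxycycline for 12 h to induce the auxin receptor OsTir1, at 2 µg/ml by the sample protocol and 1 µg/ml by the series text. Those of the 12 h set then stayed untreated or received 500 µM IAA for 12 h (52 libraries, WT and 12 degron lines). A second set of 12 libraries took 3 degron lines (RPB1, RPB3, RPB6) before IAA, labelled 0 h, and after 1 h of IAA at 500 µM, and the sets were scaled apart and never tested against each other. The medium held the MEK inhibitor PD0325901 and the GSK3 inhibitor CHIR99021. The sources used here do not say whether WT carried OsTir1 or whether a degron line is 1 clone. Nor do the labels name separate cultures for replicates, so p-values reflect no more than the spread among these libraries, which may be technical.

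RIG-I (gene Ddx58) and MDA5 (Ifih1) are helicases that bind viral double-stranded RNA in the cytoplasm and pass the signal to MAVS on the mitochondrial surface. MAVS activates the transcription factor IRF3, which switches on type I interferon genes. Interferon in turn raises a broad set of antiviral genes through STAT factors that bind the interferon-stimulated response element (ISRE) and the gamma-activated site (GAS). Pluripotent stem cells are known for a weak interferon response.

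Promoters show which members carry letters of these elements, and 8 of the 9 members matched a RefSeq promoter entry (GRCm38.p6, 11 windows of 300 bases, from 250 bases before to 50 after a start). The ISRE core was searched as GAAANNGAA on both strands and the GAS core as TTCNNNGAA, which reads the same on both strands. The ISRE core stood in 4 of the 11 windows, of 4 members (Ddx58, Ifih1, Eif2ak2 and Adar), and in 8.56% of all 32851 promoter windows. The GAS core stood in 3 of the 11 windows, of 3 members (Eif2ak2, Adar and Irf1), and in 8.3% of all windows. The 4 windows below are those of members passing the count filter that held either motif, and capitals mark the matches.
Ddx58, chr4:40239776-40240075, minus strand: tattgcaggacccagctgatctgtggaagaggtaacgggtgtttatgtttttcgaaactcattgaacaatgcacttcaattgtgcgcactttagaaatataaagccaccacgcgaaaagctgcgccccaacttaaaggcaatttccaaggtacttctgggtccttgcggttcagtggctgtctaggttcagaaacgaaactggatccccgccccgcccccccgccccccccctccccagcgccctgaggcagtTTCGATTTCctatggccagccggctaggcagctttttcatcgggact
Eif2ak2, chr17:78882523-78882822, minus strand: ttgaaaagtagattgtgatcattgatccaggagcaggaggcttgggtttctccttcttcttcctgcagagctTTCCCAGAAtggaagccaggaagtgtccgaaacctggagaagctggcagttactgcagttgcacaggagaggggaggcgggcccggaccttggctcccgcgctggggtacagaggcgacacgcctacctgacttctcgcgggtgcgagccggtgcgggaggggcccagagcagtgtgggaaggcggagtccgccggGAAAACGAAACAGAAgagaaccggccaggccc
Adar, chr3:89730468-89730767, plus strand: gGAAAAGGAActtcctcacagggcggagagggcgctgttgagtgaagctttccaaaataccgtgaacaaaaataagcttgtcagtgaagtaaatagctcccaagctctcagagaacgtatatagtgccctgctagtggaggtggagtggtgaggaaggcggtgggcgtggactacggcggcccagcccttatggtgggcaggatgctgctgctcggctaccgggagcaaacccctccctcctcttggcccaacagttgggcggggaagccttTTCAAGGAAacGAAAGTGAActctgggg
Irf1, chr11:53769764-53770063, plus strand: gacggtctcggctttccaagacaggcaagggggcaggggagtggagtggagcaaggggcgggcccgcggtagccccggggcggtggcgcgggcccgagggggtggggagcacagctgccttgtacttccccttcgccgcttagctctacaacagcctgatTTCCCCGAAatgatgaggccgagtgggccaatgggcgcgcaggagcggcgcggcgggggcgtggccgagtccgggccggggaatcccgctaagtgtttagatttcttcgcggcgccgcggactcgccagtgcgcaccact
In Ddx58 the ISRE core lies on the opposite strand and begins 3 bases after the start site. In Eif2ak2, 2 overlapping ISRE cores begin 18 and 24 bases after the start, and a GAS core begins at position -178 relative to it. The Adar window starts inside the gene (chromosome 3, 89715022 to 89753446), at a later start site, and holds 2 ISRE cores and a GAS core. The other 2 Adar windows held neither. In Irf1 the GAS core begins 90 bases before the start. The windows of Mavs, Zc3hav1 and Irf3 held neither motif. A match of letters is a description and shows no binding.

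Levels are CPM, each library's counts after TMM scaling to a common total, given for the 2 libraries of a group in turn, and changes are log2 fold changes ± SE of IAA minus untreated. Calls come from edgeR's quasi-likelihood test at a threshold of 0.05 on p-values adjusted by Benjamini-Hochberg over all genes, and "rose" or "fell" is used only of calls. Libraries held 3399838 to 7164928 counts at 12 h and 8598431 to 13281252 at 0 h and 1 h. All 15 embryonic stem cell markers averaged 1 CPM or more, with a summed level of 5920 to 8580 CPM in untreated and 3700 to 10800 CPM in IAA libraries. Of those 15 genes, 13 fell in RPB1, RPB5 and RPB8, 11 fell in RPB2, RPB3, RPB6 and RPB7, and 5 fell in WT. Of all genes, 30.5%, 28.1% and 30.2% fell in RPB1, RPB5 and RPB8, and 34%, 23.3%, 33.4% and 21.1% in RPB2, RPB3, RPB6 and RPB7. In WT 0.842% fell. Over the 13 lines the 15 markers had 19 calls higher and 121 lower. Their mean summed level went from 7650 to 3730 CPM in RPB1, 7640 to 5440 in RPB3 and 7140 to 4970 in RPB7. In RPB2 it went up from 8370 to 10700 CPM, and in RPB6 it was 7290 untreated and 7070 CPM in IAA. The 12 immune cell markers summed to 68.5 to 170 CPM in untreated and 75.2 to 427 CPM in IAA libraries, led by Laptm5 (mean 95.9 CPM), Cd68 (16.8) and Csf1r (15), and over the 13 lines the 8 tested had 27 calls higher and 5 lower. Among them Ptprc and Adgre1, which define leukocytes and macrophages, had at most 2 counts in any 12 h library. Embryonic fibroblast markers summed to 5.97 to 32.5 CPM and primitive endoderm markers to 33.2 to 129 CPM. In bulk RNA, fewer cells of a type and less RNA per cell cannot be told apart, and reads counted here are shares of a library, not amounts per cell.

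Across 13 lines and 8 tested members, 50 of the 104 member-line pairs were called at 12 h. In WT 0 members rose and 1 fell, beside 0.803% and 0.842% of all 17928 genes tested. In RPB1 2 rose and 5 fell, beside 35.8% and 30.5% of all genes. RPB2 had 0 and 6, beside 27.9% and 34%, and RPB3 had 1 and 1, beside 24.4% and 23.3%. In RPB4 0 rose and 1 fell, beside 1.13% and 0.948%. RPB5 had 2 and 3, beside 31% and 28.1%. RPB6 had 1 and 5, beside 27.3% and 33.4%. In RPB7 3 rose and 2 fell, beside 20.2% and 21.1%, and in RPB8 1 and 3, beside 31.5% and 30.2%. RPB9 had 1 and 2, beside 16.8% and 18%. In RPB10 0 rose and 6 fell, beside 18.2% and 21.2%. RPB11 had 0 and 3, beside 10.6% and 13.1%, and RPB12 had 0 and 1, beside 2.14% and 2.65%. Since the genes were chosen with these contrasts in view, nothing is read from the shares.

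**Figure D1:**
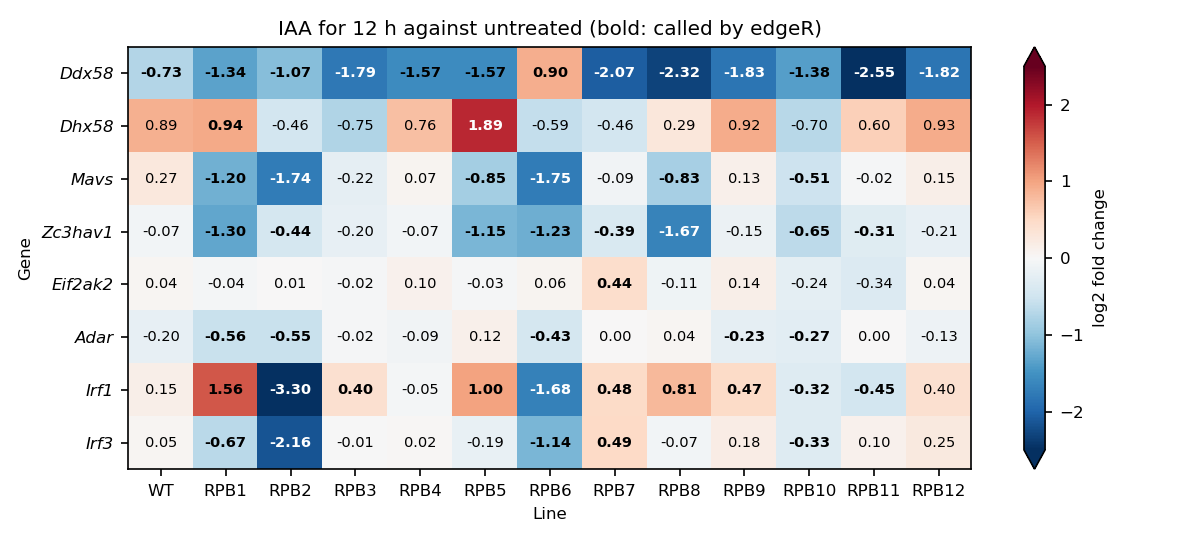
Log2 fold change of IAA for 12 h minus untreated for the 8 tested members (vertical axis) in each of the 13 lines (horizontal axis). Colour and printed number give the value, bold marks a call by edgeR, and the colour scale is cut at 2.5 on either side. Ddx58 is negative in all lines but RPB6 (0.90), and Irf1 runs from -3.30 in RPB2 to 1.56 in RPB1.

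Ddx58, which encodes the RNA helicase RIG-I (ENSMUSG00000040296, mm10 chromosome 4, 40203773 to 40239828, minus strand), had the widest set of calls: it fell in 12 lines, WT among them, and rose in RPB6. In WT its 2 untreated libraries had 22.1 and 22.7 CPM and its IAA libraries 12.6 and 14.4 CPM. RPB4, whose line had few called genes, went from 107 and 105 to 37.4 and 33.9 CPM, and RPB12 from 86.8 and 95.8 to 27.8 and 24 CPM. In these 3 lines IAA libraries all lay below untreated ones, with changes of -0.73 ± 0.2, -1.57 ± 0.15 and -1.82 ± 0.15. The lowest levels were reached in RPB11, from 47.8 and 38 to 6.86 and 7.69 CPM (-2.55 ± 0.19, 5.86-fold lower). RPB7 went from 38.1 and 35 to 8.8 and 8.59 CPM, and RPB9 from 34.6 and 32.1 to 9.75 and 8.99 CPM. Both ended under 10 CPM, and RPB10 went from 26.9 and 23 to 10 and 9.07 CPM.

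In RPB8, Ddx58 went from 64.7 and 78.7 to 12.9 and 15.9 CPM (-2.32 ± 0.19), and in RPB3 from 50.2 and 47.8 to 14.1 and 14.2 CPM (-1.79 ± 0.17). RPB5 had untreated libraries far apart, at 72.1 and 43.5 CPM, and IAA libraries at 20.1 and 18.2 CPM (-1.57 ± 0.17). RPB1 went from 53.3 and 51 to 24.8 and 16.5 CPM (-1.34 ± 0.17). Groups did not overlap in any of these lines. RPB2 kept the highest level among the lines that fell, going from 73.8 and 90.1 to 39 and 39.1 CPM (-1.07 ± 0.17). In RPB6 alone the order was turned, with 39.4 and 39.2 CPM untreated and 75.8 and 70.9 CPM in IAA (0.90 ± 0.15, 1.87-fold higher). That value was 0.27 and not called scaled to total counts and -1.06 scaled to mitochondrial mRNAs.

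In 10 of the 12 lines where Ddx58 fell, RPB2 and RPB1 aside, its change stood between the 0.591 percentile (RPB11) and the 7.18 percentile (RPB10) of all genes tested. It stood at the 8.22 percentile in RPB1, the 33.5 percentile in RPB2 and the 77.9 percentile in RPB6. Of 17928 genes tested, 28 (0.156%) were called lower in 12 or more of the 13 lines, Ddx58 included. In WT the call was lost without each of its 4 libraries in turn (-0.62 to -0.82, adjusted p 0.146 to 0.378 by edgeR) and with total counts (-0.71).

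**Figure D2:**
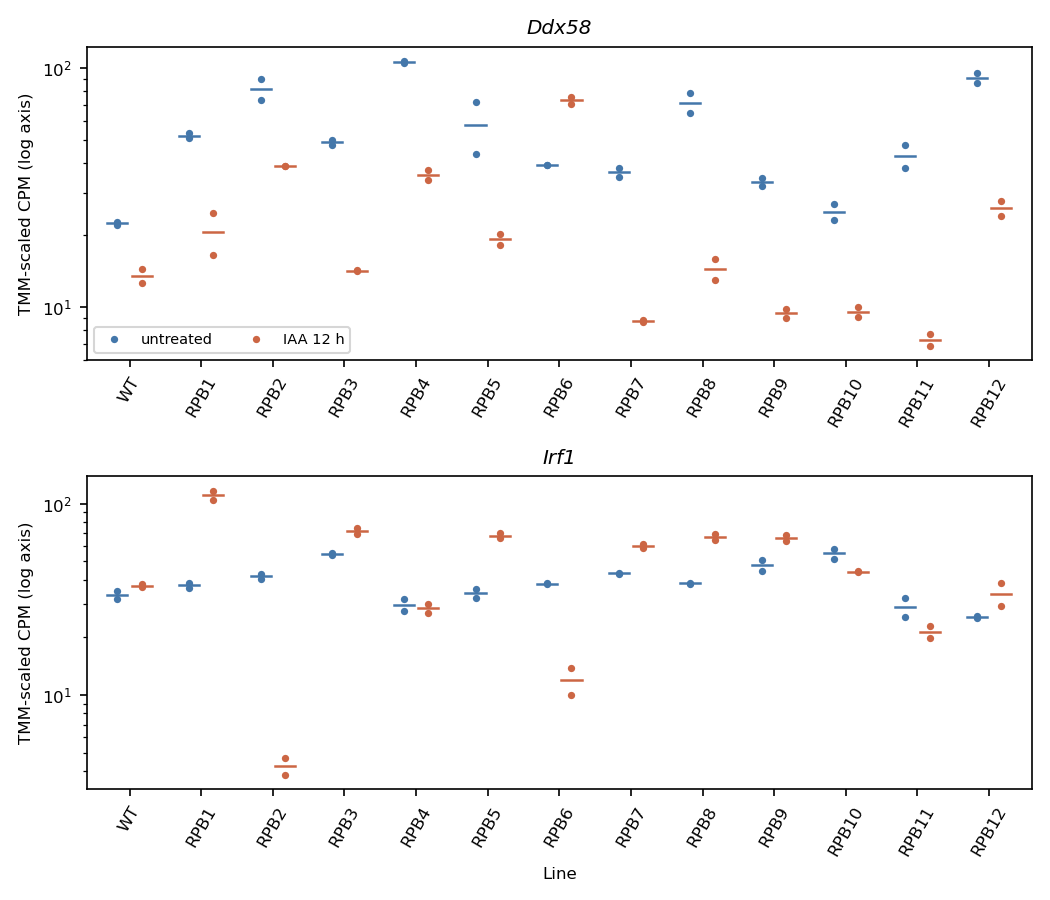
TMM-scaled CPM on a log axis (vertical) of Ddx58 (top) and Irf1 (bottom) in each line (horizontal), with 1 point per library, untreated in blue and IAA for 12 h in orange, and a bar at the mean of 2 libraries. Ddx58 in IAA lies below untreated in every line but RPB6, and Irf1 in RPB2 drops to 3.81 and 4.66 CPM while it reaches 105 and 117 CPM in RPB1.

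Ifih1, which encodes MDA5 (ENSMUSG00000026896, chromosome 2, 62595798 to 62646255, minus strand), was at the detection limit throughout. It had 17 counts in all over 64 libraries, 13 of which held any, and at most 0.969 CPM. The highest library was RPB1 in IAA, replicate 1, with 5 counts, while its replicate 2 had 0. A count of 0 allows up to 3 counts, so no change of Ifih1 was detectable at this depth.

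Dhx58, which encodes LGP2, a related helicase without a signalling domain of its own (ENSMUSG00000017830, chromosome 11, 100694884 to 100704271, minus strand), stood at 0.444 to 7.08 CPM. It rose in RPB5, from 2.05 and 1.62 to 6.51 and 7.08 CPM (1.89 ± 0.35), and in RPB1, from 3.2 and 2.73 to 6.01 and 5.42 CPM (0.94 ± 0.33). These 4 IAA libraries were the highest of the 12 h set and held 29 to 33 counts each. In the other 11 lines changes ran from -0.75 ± 0.39 in RPB3 to 0.93 ± 0.39 in RPB12 and were not called. Without untreated replicate 1 the change became 2.07 in RPB9 (0.92 with it) and -1.10 in RPB3, both called. It was called lower in RPB2 and RPB6 with total counts (-1.30 and -1.20) and with mitochondrial mRNAs (-2.60 and -2.51). WT went from 1.77 and 1.6 to 2.99 and 3.3 CPM without a call (0.89 ± 0.41). In RPB1 the call was lost without untreated replicate 2 (0.84) or IAA replicate 1 (0.86), and at 0.37 scaled to mitochondrial mRNAs. An antisense gene, Dhx58os, overlaps it and had 215 counts in the 52 libraries; the sources used here do not give the strand setting of the counting, so reads of both genes cannot be told apart.

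Mavs encodes the adaptor of both sensors (ENSMUSG00000037523, chromosome 2, 131234063 to 131248025, plus strand). It fell in 6 lines, beside 17.3% of all genes tested called lower in 6 or more, and was called higher in 0. The largest falls were in RPB6, from 46 and 40.7 to 16.2 and 9.45 CPM (-1.75 ± 0.17), and RPB2, from 42.9 and 40.9 to 8.56 and 16.3 CPM (-1.74 ± 0.19). RPB1 went from 37.6 and 38 to 15.3 and 17.6 CPM (-1.20 ± 0.15). In all 3, every IAA library lay below every untreated one. Smaller falls were called in RPB5 (-0.85 ± 0.14), RPB8 (-0.83 ± 0.15) and RPB10 (-0.51 ± 0.13). In the other 7 lines changes ran from -0.22 ± 0.13 in RPB3 to 0.27 ± 0.12 in WT, and without IAA replicate 2 the value in RPB3 was -0.39 and called.

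Irf3 encodes the transcription factor activated through MAVS (ENSMUSG00000003184, chromosome 7, 44997648 to 45002848, plus strand). It fell furthest in RPB2, from 49.9 and 53.2 to 10.5 and 12.6 CPM (-2.16 ± 0.18), then in RPB6, from 43.5 and 43.6 to 19.2 and 20.3 CPM (-1.14 ± 0.15). RPB1 went from 51.1 and 51.2 to 31.8 and 32.4 CPM (-0.67 ± 0.12). RPB7 went the other way, from 49.5 and 61.8 to 77.6 and 77.9 CPM (0.49 ± 0.11). Groups did not overlap in these 4 lines. In RPB7 the value was 0.07 and not called scaled to mitochondrial mRNAs. The fall in RPB10 (-0.33 ± 0.11) was lost with total counts (-0.24), with DESeq2 (-0.30), scaled to mitochondrial mRNAs (-0.59, no longer called) and without untreated replicate 1 (-0.27) or IAA replicate 1 (-0.18). Scaled to mitochondrial mRNAs, Irf3 was also called lower in RPB5 (-0.73) and RPB8 (-1.58) and higher in RPB3 (0.91). Irf3 shares its locus with Bcl2l12 on the other strand, at a mean of 27.9 CPM.

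Zc3hav1 encodes ZAP, which binds viral RNA and recruits decay enzymes (ENSMUSG00000029826, chromosome 6, 38305286 to 38354603, minus strand). It fell in 8 lines, beside 7.48% of all genes tested called lower in 8 or more, and its log2 fold change was below 0 in all 13. RPB8 went from 76.2 and 74.6 to 24.6 and 22.8 CPM (-1.67 ± 0.13). RPB1 went from 90.7 and 82.3 to 36.8 and 33.5 CPM (-1.30 ± 0.12) and RPB6 from 79.9 and 78.1 to 36.1 and 31.4 CPM (-1.23 ± 0.13). RPB5 fell from 104 and 86.7 to 38.9 and 47 CPM (-1.15 ± 0.11) and RPB10 by 0.65 ± 0.11. These 5 lines held every library below 50 CPM save 1 of RPB2. The smaller falls rest on single choices. In RPB2 the fall (-0.44 ± 0.13) was -0.20 and not called with RLE size factors or DESeq2 and -0.32 without IAA replicate 1. In RPB7 it (-0.39 ± 0.098) was lost without untreated replicate 1 (-0.28), and in RPB11 it (-0.31 ± 0.098) was lost without untreated replicate 1 (-0.22), IAA replicate 1 (-0.30) or IAA replicate 2 (-0.32). The fall in RPB11 was also lost with total counts (-0.22), mitochondrial mRNAs (-0.19), no filter (-0.29) and a fit of that line alone (-0.30). The fall in RPB7 was also lost in a fit of that line alone (-0.38). WT was at 79.8 and 91.8 untreated and 76.6 and 86.6 CPM in IAA.

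Eif2ak2 encodes PKR, a kinase that double-stranded RNA activates to halt translation (ENSMUSG00000024079, chromosome 17, 78852564 to 78882573, minus strand). Its log2 fold change with IAA lay between -0.34 ± 0.16 in RPB11 and 0.44 ± 0.17 in RPB7, and RPB7 held the only call. There the untreated libraries stood at 24.5 and 13.1 CPM and the IAA libraries at 24.4 and 27.7 CPM, which overlap. Without untreated replicate 2 the value was 0.11 and not called, without IAA replicate 2 it was 0.34 and not called, and without untreated replicate 1 it was 0.99. In RPB1, Eif2ak2 had 35 and 36.9 CPM untreated and 34.1 and 35.9 CPM in IAA. In RPB2 and RPB6 its values of 0.01 and 0.06 were -0.84 and -0.57 with total counts and -2.22 and -1.90 with mitochondrial mRNAs, all called lower.

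Adar encodes the enzyme that edits adenosine to inosine in double-stranded RNA and so keeps the cell's own RNA from the sensors (ENSMUSG00000027951, chromosome 3, 89715022 to 89753446, plus strand). It fell in 5 lines by small amounts, beside 23.3% of all genes tested called lower in 5 or more, and was called higher in 0. RPB1 went from 98.1 and 88.1 to 67.2 and 59.5 CPM (-0.56 ± 0.096), RPB2 from 97.5 and 84.1 to 63.7 and 59.6 CPM (-0.55 ± 0.11) and RPB6 from 105 and 113 to 79.8 and 81.7 CPM (-0.43 ± 0.098). Groups did not overlap in these 3 lines. The falls in RPB9 (-0.23 ± 0.091) and RPB10 (-0.27 ± 0.093) were each lost without any 1 of their 4 libraries. Across all 26 groups Adar stayed between 59.5 and 119 CPM per library. Chrnb2 overlaps it on the other strand, at a mean of 30.1 CPM.

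**Figure D3:**
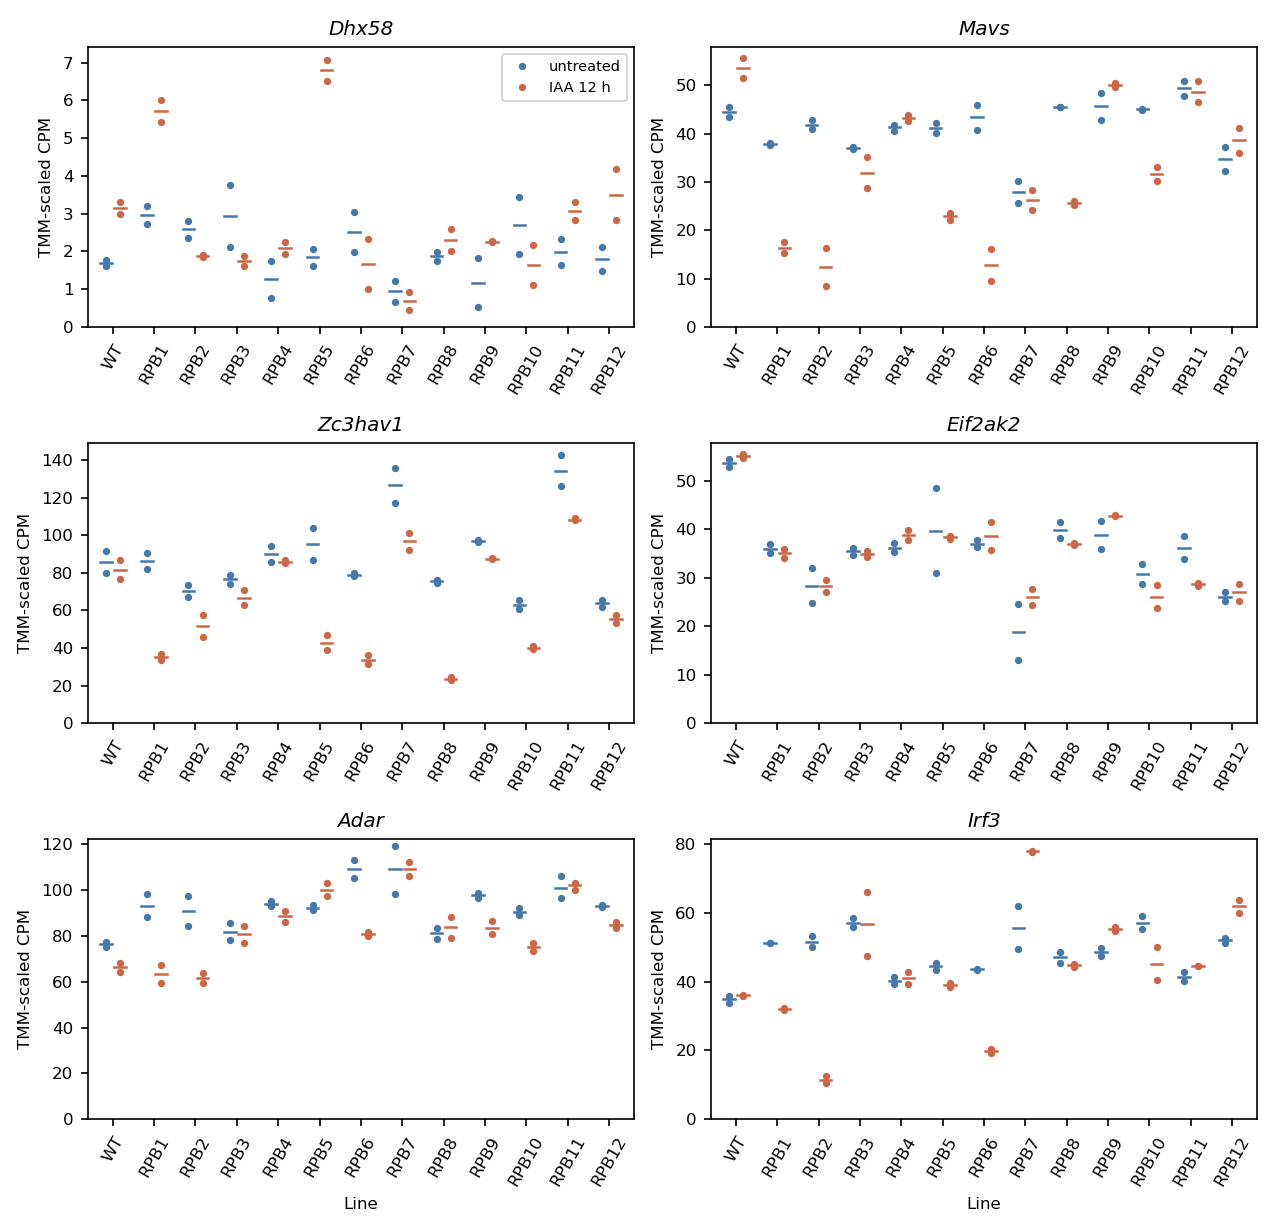
TMM-scaled CPM (vertical axes, starting at 0) of Dhx58, Mavs, Zc3hav1, Eif2ak2, Adar and Irf3 in each line (horizontal axes), with 1 point per library, untreated in blue and IAA for 12 h in orange, and a bar at the mean of 2 libraries. Mavs, Zc3hav1 and Irf3 are lower in IAA in RPB1 and RPB6, while Eif2ak2 in WT (52.9 to 55.6 CPM) lies above the libraries of all 12 degron lines.

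Irf1 encodes a transcription factor that interferon gamma induces and whose mRNA is short-lived (ENSMUSG00000018899, chromosome 11, 53770014 to 53778374, plus strand). It moved in opposite directions between lines. Calls were higher in 6, beside 12.5% of all genes tested called higher in 6 or more. They were lower in 4, beside 30.7% called lower in 4 or more. RPB1 was highest, going from 36.4 and 38.4 to 105 and 117 CPM (1.56 ± 0.11, 2.95-fold higher). RPB5 went from 32.2 and 35.6 to 65.9 and 69.9 CPM (1.00 ± 0.12), and RPB8 went from 38.1 and 38.5 to 69.5 and 64.8 CPM (0.81 ± 0.12). All IAA libraries of these 3 lines lay above all untreated libraries of the 13 lines. Smaller rises were called in RPB7, from 43.4 and 43 to 58.9 and 61.5 CPM (0.48 ± 0.11), in RPB9, from 50.7 and 44.7 to 68.4 and 63.7 CPM (0.47 ± 0.11), and in RPB3, from 54.1 and 55.5 to 74.9 and 69.7 CPM (0.40 ± 0.11). RPB12 went from 25.2 and 26 to 29.2 and 38.3 CPM and was not called (0.40 ± 0.13), though it was in a fit of that line alone (0.40) and without IAA replicate 1 (0.58).

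The lowest Irf1 levels of the 12 h set were in RPB2, which went from 40.3 and 43.1 to 3.81 and 4.66 CPM (-3.30 ± 0.23, 9.85-fold lower), on 8 and 10 counts. RPB6 went from 38 and 38.4 to 9.94 and 13.8 CPM (-1.68 ± 0.17). Neither line overlapped with its untreated libraries. RPB11 fell from 25.5 and 32.3 to 23 and 19.8 CPM (-0.45 ± 0.13) and RPB10 from 51.6 and 58.2 to 43.7 and 44.3 CPM (-0.32 ± 0.11). Without untreated replicate 2 these were -0.26 and -0.20 and not called, RPB11 was also lost without IAA replicate 2 (-0.34) and RPB10 without IAA replicate 1 (-0.30) or 2 (-0.32). WT, at 35 and 31.8 CPM untreated and 36.5 and 37.9 CPM in IAA, and RPB4 (-0.05 ± 0.13) were not called. Scaled to mitochondrial mRNAs, Irf1 in RPB8 turned to -0.70 and was called lower, and the rises in RPB5 (0.45), RPB7 (0.07) and RPB9 (0.32) were no longer called. Nor were the falls in RPB10 (-0.58) and RPB11 (-0.36). The fall in RPB10 was also lost with total counts (-0.23) and DESeq2 (-0.29). That in RPB11 was also lost with no filter (-0.43) and in a fit of that line alone (-0.43). Gm17334, at a mean of 11.5 CPM, overlaps Irf1 on the other strand.

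After 1 h of IAA, 1 member of the 8 tested was called. Irf1 rose in RPB1, from 18.4 and 21.9 CPM at 0 h to 28.7 and 26.6 CPM at 1 h (0.46 ± 0.13), beside 24.9% of all 15658 genes called in either direction. That call was lost without 0 h replicate 1 (0.34), 1 h replicate 1 (0.40) or 1 h replicate 2 (0.50) and scaled to mitochondrial mRNAs (0.53). Irf1 was also higher in the mean in RPB3, from 23.9 and 23.7 to 27.1 and 29.3 CPM (0.25 ± 0.12), and RPB6, from 17.2 and 19.6 to 23.4 and 19.3 CPM (0.23 ± 0.13), without a call. In RPB3 0 members were called, beside 0.358% of genes, and in RPB6 0, beside 1.54%.

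Ddx58 at 1 h was not called in RPB1, at 40.1 and 37.9 against 33 and 33.1 CPM (-0.24 ± 0.1), nor in RPB6, at 121 and 124 against 95.6 and 107 CPM (-0.27 ± 0.084), though its groups did not overlap in either. In RPB3 the libraries overlapped (-0.04 ± 0.097). The 0 h libraries of RPB6 had Ddx58 at 121 and 124 CPM, Mavs at 17.1 and 18.4 CPM and Irf3 at 21.1 and 23.1 CPM. The untreated libraries of the same line in the 12 h set had 39.4 and 39.2, 46 and 40.7, and 43.5 and 43.6 CPM. For the 0 h and 1 h samples the sources used here name no library type, and the difference between the sets was not tested.

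Members also differed between lines before IAA. Ddx58 was called higher than in untreated WT (22.1 and 22.7 CPM) in 11 of 12 untreated degron lines. The largest differences were 2.24 ± 0.15 in RPB4 (107 and 105 CPM, 4.72-fold), 2.03 ± 0.15 in RPB12 and 1.87 ± 0.15 in RPB2, and RPB10 was not called (0.15 ± 0.17). Over the 13 untreated lines the highest mean of Ddx58 was 4.73 times the lowest, a wider spread than that of 93.4% of the 11425 genes averaging at least 5 CPM in untreated lines. Eif2ak2 went the other way, called lower than in WT (52.9 and 54.5 CPM) in all 12 lines, by 0.43 ± 0.15 in RPB8 to 1.48 ± 0.16 in RPB7. All 24 untreated degron libraries of the 12 h set lay below both WT libraries. These 12 comparisons share the 2 untreated WT libraries, so their calls are not independent. The share of all genes called in as many untreated lines, or with no overlap, was not computed, and nothing is read from these numbers. Eif2ak2 stood higher at 0 h in the other set, which held no WT and was scaled apart. RPB1 had 66.1 and 69.9 CPM there (35 and 36.9 CPM untreated in the 12 h set). The 0 h libraries of RPB3 had 57.3 and 54.6 CPM (36.2 and 34.6 untreated), those of RPB6 39.3 and 56 CPM (36.4 and 37.7 untreated). The difference between the sets was not tested. Without WT replicate 1 or 2, Ddx58 was called in 10 lines each and Eif2ak2 in 9 and 7. In RPB5, Eif2ak2 (-0.45) was -0.15 and not called without untreated replicate 2 and -0.80 without replicate 1. Scaled to mitochondrial mRNAs, 9 and 4 lines were called.

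Adar and Irf3 were each called higher than WT in 10 untreated lines, by up to 0.52 for Adar in RPB7 and 0.71 for Irf3 in RPB3. All libraries of every line lay above WT for both. As for Ddx58 and Eif2ak2, the share of all genes with as many calls or no overlap was not computed. With mitochondrial mRNAs these were 1 and 2 lines, with total counts 4 and 8, and without WT replicate 1, 6 and 7. In RPB4, Adar (0.30) turned to -0.15 scaled to mitochondrial mRNAs. Irf1 was higher in 5 lines, with 0.72 ± 0.12 in RPB10, and lower in RPB12 (-0.38 ± 0.13). Zc3hav1 was higher in RPB11 (0.65 ± 0.1) and RPB7 (0.56 ± 0.1) and lower in 3 lines, Mavs was lower in RPB7 (-0.66 ± 0.13) and RPB12 (-0.35 ± 0.13), and Dhx58 was called in 0 lines. Without WT replicate 2 all 3 lower calls of Zc3hav1 were lost (RPB2 -0.16, RPB10 -0.32, RPB12 -0.29) and Irf1 was higher in 3 lines. Without WT replicate 1 the lower calls of Irf1 (-0.28) and Mavs (-0.29) in RPB12 were lost.

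By line, 4 of 8 members were called against WT in RPB1, beside 21.2% of all genes, 6 in RPB2, beside 40.8%, 4 in RPB3, beside 29.9%, and 3 in RPB4, beside 33.1%. RPB5 had 4, beside 17.9%, RPB6 4, beside 24.5%, RPB7 7, beside 53.7%, and RPB8 3, beside 20%. RPB9 had 5, beside 15.7%, RPB10 5, beside 31.8%, RPB11 4, beside 22.8%, and RPB12 7, beside 40.2%. These contrasts were in view when the genes were chosen, and nothing is read from the shares. Per kilobase of merged exon, median untreated levels ran from Irf3 (14.3 CPM per kb), Mavs (12.6), Zc3hav1 (12.4) and Adar (11.5) to Irf1 (9.62), Eif2ak2 (6.96), Ddx58 (6.78) and Dhx58 (0.597). Neighbours in that order overlapped in their range over untreated libraries, except that Dhx58 lay below Ddx58 in all of them.

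**Figure D4:**
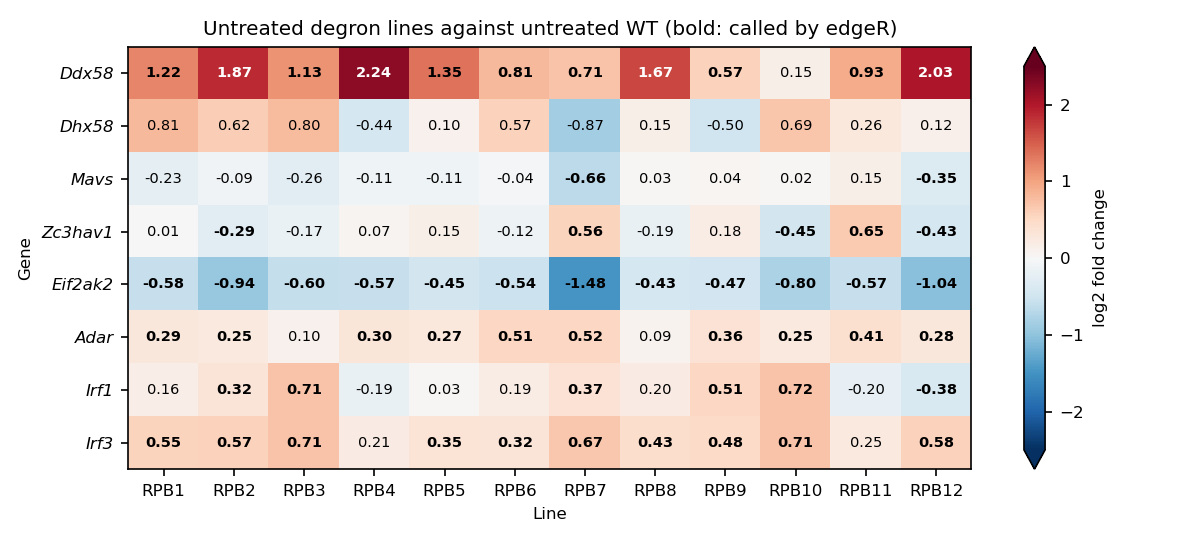
Log2 fold change of each untreated degron line (horizontal axis) minus untreated WT for the 8 tested members (vertical axis). Colour and printed number give the value, and bold marks a call by edgeR; all columns share the 2 untreated WT libraries. Ddx58 is at 0.15 to 2.24 and Eif2ak2 at -0.43 to -1.48.

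The genes whose 13 log2 fold changes at 12 h ran most like those of a member were taken from 10458 genes averaging at least 5 CPM. For Ddx58 they were Slc6a15, an amino acid transporter (Pearson r 0.934), Reep3 (0.903) and Nt5e, an ecto-nucleotidase (0.902). For Irf1 they were Lrr1 (0.975), Tprn (0.974) and Mad2l1bp (0.973), and for Irf3 Zfp61 (0.971), Ctdsp2 (0.960) and Rab30 (0.957). Those of Mavs were Pde4d (0.976) and Usp10 (0.972), and those of Zc3hav1 were Alms1 (0.941), Mgat5 (0.940) and Tfcp2l1, a pluripotency factor (0.938). Values were lower for Adar, with Stam (0.875), Ppp1r18 (0.849) and Tmem248 (0.848), for Dhx58, with Suox (0.889), Ptprj (0.875) and Fbxl8 (0.819), and for Eif2ak2, with Col5a3 (0.858), Gstm3 (0.789) and Gfpt2 (0.735). Among members themselves r ran from -0.61 (Ddx58 and Adar) to 0.87 (Mavs and Irf3). Each r is over 13 lines that share libraries between genes, and is a description.

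Other genes of the pathway, in 10 lists that leave the members out, held 158 tested genes, and 891 of their 2054 gene-line pairs (43.4%) were called, 407 higher and 484 lower, beside 38.9% of all gene-line pairs. Of 30 RNA sensor and signalling partners, 0 were called in WT, RPB4 and RPB12. In RPB2 7 rose and 17 fell, with a list median of -0.84 beside -0.19 over all genes, and in RPB6 10 rose and 17 fell (-0.66 beside -0.13). RPB10 had 11 higher and 3 lower (0.05 beside 0.00). Tomm70a, a mitochondrial import receptor that binds MAVS, fell in 10 lines and rose in 0. Dhx15, a helicase of splicing and RNA sensing, fell in 8, by 1.36 in RPB7, and rose in RPB2 (0.92) and RPB6 (1.22). Rnf135, a ubiquitin ligase of RIG-I, rose in 7 lines, by 0.96 in RPB7, and fell in RPB2, RPB6 and RPB8.

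Interferon ligand genes were near 0. Of 18 listed, 17 did not pass the filter, each with 0 to 25 counts in the 52 libraries, and Ifnb1 had 0. Ifna13, the other, had 12 and 10 counts (5.71 and 4.66 CPM) in the IAA libraries of RPB2 and 0 in the other 50 libraries. That is at least 10.1-fold higher than a floor of 3 counts per untreated RPB2 library (edgeR called it). Interferon alpha genes are near-identical copies, so the source of these reads is uncertain. It passed the filter only through the group where it is high.

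Among 57 interferon-stimulated genes, 39 were tested. In RPB1 22 rose, 7 fell and 10 were not called, with a median of 0.60 beside 0.09 over all genes, and in RPB2 22 rose and 6 fell (1.47 beside -0.19). RPB6 had 17 higher and 6 lower (0.62 beside -0.13) and RPB8 16 and 6 (0.46 beside 0.04). RPB5 had 13 and 6 (0.33 beside 0.08), RPB3 13 and 12. WT had 1 higher and 0 lower, RPB4 1 and 1, RPB11 2 and 5 (median -0.11) and RPB12 2 and 3. Low genes that are high in 1 group pass the filter through that group. A mean over the 52 libraries includes the IAA libraries, so a cut on it does not remove this. Isg20 is kept at a mean of 5.19 CPM, with 1252 counts in all and up to 278 in a library. Over the 23 with a mean of 5 CPM or more in the 52 libraries, RPB1 had 10 higher and 6 lower (median 0.02), RPB2 17 and 4 (1.47), RPB6 15 and 4 (0.95) and RPB8 10 and 4 (0.17). Scaled to mitochondrial mRNAs the order turned in 3 of these lines: of the 39, RPB2 had 0 higher and 19 lower, RPB6 0 and 27, RPB8 4 and 20 and RPB1 12 and 11, with medians of -0.66, -1.33, -1.04 and 0.04 beside -2.32, -2.08, -1.43 and -0.47 over all genes.

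Isg20, an exonuclease that degrades viral RNA, rose in 9 lines. It went from 0.397 to 2.63 CPM in the mean at 1 h in RPB1 (2.66 ± 0.52, edgeR adjusted p = 0.00146). At 12 h its change was 8.11 in RPB8, 7.62 in RPB5 and 5.27 in RPB1. With 1252 counts in the 52 libraries and at most 278 in a library, such changes rest on untreated levels near 0. They give a direction and no exact size. Ifitm1, an inhibitor of viral entry, also rose in 9 lines, WT (0.53) and RPB4 (0.53) among them, by 2.01 in RPB2, and fell in RPB3 (-0.34). Tor3a, an interferon-responsive ATPase gene, fell in 10 lines, by 1.14 in RPB4 and 1.90 in RPB12. The summed level of the 12 immune cell markers went from 85.6 to 169 CPM in the mean in RPB1, from 125 to 427 CPM in RPB2, from 84.8 to 211 CPM in RPB6 and from 118 to 267 CPM in RPB8. It went from 78 to 194 CPM in RPB5 and from 68.5 to 133 CPM in RPB10, and in untreated libraries 4 of the 12 (Ptprc, Adgre1, Lyz2 and Tyrobp) were at 0. Laptm5, a lysosomal gene of that list named after its values were seen, went from 87.9 to 396 CPM in RPB2, while Ptprc and Adgre1 stayed near 0. The part of other cell types in these values was not tested.

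**Figure D5:**
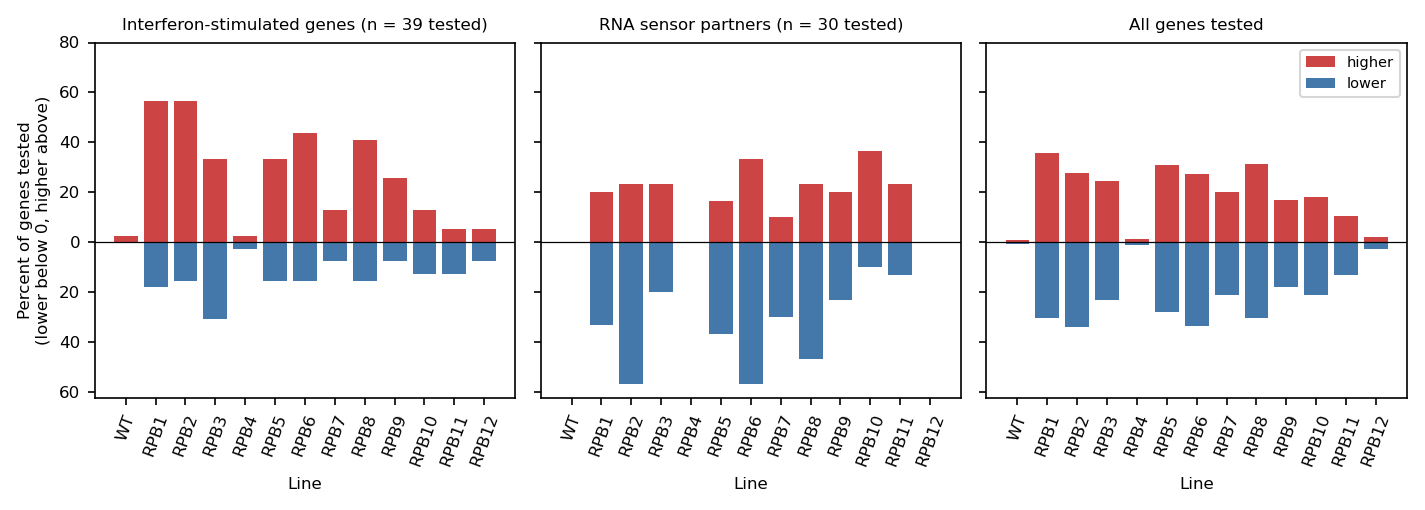
Percent of genes called higher (red, above 0) or lower (blue, below 0) after 12 h of IAA in each line (horizontal axis), for 39 tested interferon-stimulated genes (left), 30 tested RNA sensor partners (middle) and all 17928 genes tested (right). In RPB1, 22 of the 39 interferon-stimulated genes were higher, beside 35.8% of all genes. Of the 23 with a mean of 5 CPM or more, 10 were higher and 6 lower in RPB1. Among sensor partners no bar stands in WT, RPB4 or RPB12.

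Myd88, the adaptor of Toll-like receptors, rose in 10 lines and fell in 0, by 1.96 in RPB8, while Tmem173, which encodes STING, fell in 7 and rose in WT (0.66). Ticam1, which encodes the adaptor TRIF, rose in 6 and fell in 2. Of 16 receptor, JAK and STAT genes, 4 rose and 10 fell in RPB2, with a median of -1.94 beside -0.19 over all genes. In RPB6 3 rose and 10 fell (-1.57 beside -0.13), and in RPB1 8 rose and 2 fell (0.47 beside 0.09). Of all genes, 27.9%, 27.3% and 35.8% rose and 34%, 33.4% and 30.5% fell in RPB2, RPB6 and RPB1. Ptpn11, a phosphatase gene, rose in 10 lines, Ptpn2, a phosphatase of JAK kinases, fell in 9 and Socs3, a feedback inhibitor of JAK, rose in 4 and fell in 4. Of 9 other genes of the IRF family and its binding partners, 5 fell and 1 rose in RPB2 (-2.31). Of all genes, 34% fell and 27.9% rose there. In RPB1 5 rose and 2 fell (0.94), beside 35.8% and 30.5% of all genes. In RPB8 5 rose and 1 fell (0.83), beside 31.5% and 30.2% of all genes. Low genes can pass the filter through 1 group here too. Over the 6 with a mean of 5 CPM or more, RPB1 had 3 higher and 2 lower (0.30) and RPB8 3 and 1 (0.44). RPB2 had 1 higher and 5 lower (-2.35). Irf2bp2 was at 2.14 in RPB8 and -1.99 in RPB2, and Irf2bp1 at -2.39 in RPB2.

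Of 11 NF-kB genes, 9 fell and 1 rose in RPB2 (median -2.45 beside -0.19 over all genes) and in RPB6 (-1.48 beside -0.13). Of all genes, 34% and 33.4% fell in these lines. Nfkb1, which encodes the p50 precursor, fell in 10 lines, RPB4 (-0.73) among them, and was not called in WT (-0.46), RPB6 (0.29) or RPB12 (-0.42). Tnip1, an inhibitor of NF-kB, fell in 10 and rose in RPB4 (0.44), and Bcl3 fell in 8. Of 14 double-stranded RNA binding genes 12 fell and 1 rose in RPB1 (-0.73), beside 30.5% of all genes lower. In RPB5, RPB8 and RPB10 8 fell each, beside 28.1%, 30.2% and 21.2% of all genes, and 2, 3 and 0 rose. In RPB6 5 fell and 7 rose. Dicer1, the nuclease of small RNA maturation, fell in 10 lines and Strbp in 9. Of 14 ZAP cofactor and decay genes 10 fell and 0 rose in RPB1 (-0.81), beside 30.5% of all genes lower, and 0 were called in WT, RPB4 and RPB12. Exosc7 was lower in 8 lines, Exosc10 in 7 (higher in 2) and Ddx17 in 5 (higher in 3). Of 16 PKR and eIF2 genes, 8 rose in each of RPB2, RPB6 and RPB8, beside 27.9%, 27.3% and 31.5% of all genes. In the same lines 3, 3 and 5 fell. Eif2s2, an eIF2 subunit, fell in 8 lines and rose in RPB2 (0.60) and RPB6 (0.53). Eif2s1 fell in 7 and Ppp1r15b in 6, and each rose in 2.

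At 1 h, of 34 interferon-stimulated genes 1 rose and 2 fell in RPB1, and 0 were called in RPB3 or RPB6. Of 29 RNA sensor partners 6 rose and 6 fell in RPB1, beside 24.9% of all genes called in either direction, with a list median of -0.02 beside 0.01 over all genes, and 0 were called in the other 2 lines. Socs3 fell in RPB1 (-0.86 ± 0.1, edgeR adjusted p = 1.76e-05) and RPB3 (-0.46 ± 0.09).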

How the data were processed

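The deposited table holds raw read counts per mouse gene made by the authors, in whole numbers, for 64 libraries and 55335 Ensembl genes, of which 55154 were named by GENCODE M21. Per the submitters' processing notes, the tools were featureCounts, STAR, Bowtie2, DESeq2, deepTools, SAMtools and cutadapt 1.18, and the builds mm10 and dm6, with no role or order stated. The sources used here do not give the annotation, the strand setting or the treatment of multiply mapped reads. Per the labels' protocols, Drosophila S2 cells were added at 10%, and the table used holds no fly genes, so levels are relative to each library. Of the table's columns, 4 matched no sample and were not used.

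From these counts, genes passing filterByExpr were scaled by TMM and tested with the quasi-likelihood F-test of edgeR 4.0.16 (limma 3.58.1, R 4.3.3; Benjamini-Hochberg threshold 0.05). One fit took the 52 libraries of the 12 h set (17928 genes) and another the 12 libraries at 0 h and 1 h (15658 genes). SE is the log2 fold change divided by the root of F. The fits were tested on simulated data. Alternatives were RLE size factors, total counts, scaling to 13 mitochondrial mRNAs, no filter, DESeq2 1.42.0, each line alone, a replicate block and leaving out each library, with the full data's filter and dispersion trend kept and the lone sample assumed to vary like other groups. Tables and plots used Python 3.11.15, pandas 2.3.3, numpy 2.4.6 and matplotlib 3.10.9.

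The members and lists were chosen with earlier results of these data known. Besides the members, the text names up to 3 genes per pathway list with the most lines called at 12 h and a mean of 1 CPM or more, and 3 per member with the highest Pearson r among genes of 5 CPM or more. A few genes that this rule names are not reported here.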

Additional observations from a re-analysis of the deposited data

Results flagged for a closer look

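For 7 members, every IAA library lay above the untreated ones in one line and below them in another, and the difference between lines was not tested. The share of all genes that meet this rule was not computed, so nothing is read from the number of members. Uncalled values also meet it, such as both of Eif2ak2 (0.14 ± 0.15 in RPB9 and -0.34 ± 0.16 in RPB11). The pairs below are the extremes among such lines, on the log2 scale. The response of Ddx58 in RPB6 exceeded that in RPB11 by 3.45, and that of Irf1 in RPB1 exceeded that in RPB2 by 4.86. For Irf3 the difference between RPB7 and RPB2 was 2.65, for Dhx58 that between RPB5 and RPB3 was 2.64, and for Mavs that between WT and RPB6 was 2.02. The differences were smaller for Adar, at 0.68 between RPB5 and RPB1, and Eif2ak2, at 0.48 between RPB9 and RPB11.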

How the results depend on the processing

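Of the 50 member calls at 12 h, 39 held without each library in turn and 11 were lost in 1 or more such fits, with 47 to 51 calls in all and 45 to 49 under the other alternatives. Scaled to mitochondrial mRNAs, 48 were called, of which 35 were among the 50 in the same direction. That scaling turned Ddx58 in RPB6 (-1.06) and Irf1 in RPB8 (-0.70), and, among values not called before, Eif2ak2 in RPB2 (-2.22), RPB6 (-1.90) and RPB3 (0.76), Adar in RPB3 (0.76) and RPB8 (-1.47) and Irf3 in RPB3 (0.91). It turned Adar in untreated RPB4 against WT to -0.15. Total counts turned Eif2ak2 in RPB2 (-0.84) and RPB6 (-0.57). The cause was not tested. Mitochondrial mRNAs moved the median of all genes to -2.32 in RPB2, -2.08 in RPB6, -1.43 in RPB8 and 0.80 in RPB3, where the IAA libraries had 0.534% and 1.718% mitochondrial mRNA. Against untreated WT, 56 of the member-line pairs were called, 19 scaled to mitochondrial mRNAs and 40 to 56 without 1 library. At 1 h the call was 1, 0 scaled to mitochondrial mRNAs and 0 to 1 without 1 library. Replicate numbers gave correlations of deviations of -0.308 to 0.105 at 12 h and 0.007 to 0.179 at 1 h. They were not all above 0.1, so the replicate block was used only as an alternative. Whether samples were prepared in pairs is not known. With the replicate block 49 member-line pairs were called at 12 h, Adar in RPB9 being lost, 1 at 1 h, and 850 of the pathway list pairs against 891. Levels of a few counts, as for Ifih1 and Dhx58, are limited by depth.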
